A study of Mus musculus with 12 samples.

Results

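The genes described here are the 44 protein-coding collagen genes of a mouse series on cultured adult astrocytes, taken from the all-samples gene table by symbol (every protein-coding gene named Col, a number, a and a number). They are 44 of 54532 genes in the table, of which 22046 are protein coding. The names put 11 in the fibrillar class, 8 in the basement membrane class (6 chains of type IV and the multiplexins Col15a1 and Col18a1) and 25 in a class of others. The last holds 6 chains of type VI, 3 of types VIII and X, 9 of the collagens that sit on fibrils (FACITs), 4 transmembrane collagens and 3 of types VII, XXVI and XXVIII.

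The series measured RNA by sequencing in 12 libraries, 2 in each of 6 groups, of cells from the cortex and hippocampus of C57BL/6 mice that were dissociated with trypsin and papain and grown as astrocyte cultures. The Ogt cKO group and its control both carry the genotype label Glast-CreERT2::Ogtfloxp/Y at 4 months of age. Ogt encodes the enzyme that adds O-GlcNAc to proteins, and Glast (Slc1a3) is an astroglial promoter that drives a tamoxifen-dependent Cre recombinase. The sample descriptions alone tell cKO from control, and the labels do not say how recombination was induced. The AD model group carries the label 5X APP, an Alzheimer's disease model whose promoter the labels do not name, and its control is wild type. Both were 6 months old by the sample labels and 5 by the series text. The Aβ groups were wild-type cells from mice of 2 months, untreated or given 20 µM of the amyloid peptide Aβ 1-42 for 72 hours (73 in the label of the second treated library). No label states that paired libraries within a group stem from different mice or dishes, so the p-values measure only how these libraries vary, which may be technical.

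Collagens are proteins of 3 chains wound into a triple helix. Fibrillar collagens, led by types I, III and V, assemble into the cross-striated fibrils of connective tissue. Type IV chains form the sheet-like network of basement membranes, to which the multiplexins attach. In the brain the type IV network underlies blood vessels and the glial border, while fibrils are found mainly in the meninges and in the walls of larger vessels. The other classes build beaded filaments (type VI), hexagonal networks (types VIII and X) or anchoring fibrils (type VII), decorate fibrils (FACITs) or cross the cell membrane (transmembrane types).

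Sequences of 3 genes whose changes are among those described most below are shown with 1 pair of neighbours. The 250 bases before the start site were read from the RefSeq promoter table (GRCm38.p6, the same assembly as mm10), written 5′ to 3′ on the strand of the gene, with matches to the motifs searched in capitals. Col3a1 encodes the chain of fibrillar type III, Col7a1 that of type VII, and Col23a1 that of the transmembrane type XXIII.
Col3a1, chr1:45311288-45311537, plus strand: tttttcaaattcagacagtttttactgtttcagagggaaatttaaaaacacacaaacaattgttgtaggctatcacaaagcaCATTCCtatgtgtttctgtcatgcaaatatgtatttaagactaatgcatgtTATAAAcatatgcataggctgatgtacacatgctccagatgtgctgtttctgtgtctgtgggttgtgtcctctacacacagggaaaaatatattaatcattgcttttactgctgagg
Col7a1, chr9:108953336-108953585, plus strand: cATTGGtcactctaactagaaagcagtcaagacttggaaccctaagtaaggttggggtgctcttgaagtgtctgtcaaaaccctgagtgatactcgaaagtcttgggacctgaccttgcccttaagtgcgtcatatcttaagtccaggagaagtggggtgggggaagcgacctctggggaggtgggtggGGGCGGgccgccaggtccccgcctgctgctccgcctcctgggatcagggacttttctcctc
Col23a1, chr11:51289670-51289919, plus strand: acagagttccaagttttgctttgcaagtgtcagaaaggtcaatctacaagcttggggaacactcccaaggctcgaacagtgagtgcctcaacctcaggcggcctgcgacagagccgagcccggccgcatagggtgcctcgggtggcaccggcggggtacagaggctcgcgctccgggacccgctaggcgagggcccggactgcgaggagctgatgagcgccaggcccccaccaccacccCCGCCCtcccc
The genes for the chains of the main type IV collagen, Col4a1 and Col4a2, lie head to head and share 22 bases at chr8:11312805-11312826, shown on each gene's strand because these are the first bases of both.
Col4a1, minus strand: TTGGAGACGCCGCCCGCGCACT
Col4a2, plus strand: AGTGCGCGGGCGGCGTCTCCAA
The motifs searched on both strands were the CCAAT box, spelled CCAAT, the GC box, spelled GGGCGG, the TATA box, spelled TATAAA, the AP-1 site, spelled TGANTCA, and the TEAD site, spelled GGAATG. None of them contains another. The Col3a1 window was AT-rich, with 35.2% G and C and 0 CpG dinucleotides, and held a TATAAA and a GGAATG match. The Col7a1 window held 56.4% G and C with a CCAAT and a GGGCGG match, and the Col23a1 window held 66.0% with a GGGCGG match. Of the 44 collagens, 35 matched the table, with 38 windows. Their median G and C content was 59.0% against 52.4% over all windows, and their median number of CpG 9.5 against 6. GGGCGG, a motif of G and C alone, was in 22 of these 38 windows and in 32.7% of all 32851 windows of the same length. CCAAT was in 13 (33.8% of all windows), TATAAA in 5 (12.4%), GGAATG in 4 (12.6%) and TGANTCA in 1 (6.75%). A match is a string of letters only and says nothing of binding.

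The libraries held 16418852 to 18705309 reads in genes, recovered from the deposited values. Astrocyte markers were present in every group (9 or 10 of 10 at 1 FPKM or more in both libraries), but their summed level was 535 to 617 FPKM in the cKO control against 105 to 119 in Ogt cKO, 465 to 655 in the AD control against 240 to 271 in the AD model, 121 to 129 in the Aβ control and 84.3 to 174 in the Aβ-treated group. Of 6 neuronal markers only Stmn2 reached the filter. It was at 4.96 and 4.60 FPKM in the cKO control against 15.4 and 17.0 in Ogt cKO (adjusted p = 0.0453) and fell after Aβ (adjusted p = 0.0321), while Snap25 was at 0 in both cKO groups. For the counts of markers that follow, 19.8% of all genes tested were called lower in Ogt cKO. In the AD model 9.8% were called higher and 7.27% lower, and after Aβ 20.8% and 15.1%. Of the 10 astrocyte markers, 7 were called lower in Ogt cKO and 3 lower in the AD model, with 0 higher in either. In the AD model Slc1a2 alone was higher (mean 3.60 to 8.02 FPKM), without passing. After Aβ, 2 astrocyte markers were called higher (S100b and Slc1a2) and 1 lower (Aldoc). Microglia and macrophage markers summed to 6366 to 8230 FPKM in the cKO control and 2919 to 3891 in Ogt cKO (5 of 10 called lower), 968 to 1465 in the AD control and 3015 to 4943 in its model (7 called higher), and 2125 to 3542 in the Aβ control and 4229 to 5613 after Aβ (2 higher, 2 lower). Oligodendrocyte markers summed to 184 to 374 and 42.2 to 46.7 in cKO (6 of 8 lower), 230 to 248 and 346 to 399 in AD (4 higher, 2 lower), and 36.6 to 51.2 and 168 to 293 in Aβ (6 higher). The part of these cells in the collagen changes was not tested. Ogt itself was at 20.8 and 24.7 FPKM in the cKO control and 11.0 and 12.03 in Ogt cKO (log2 change -0.92 ± 0.30 SE, adjusted p = 0.0378, limma), a call lost without any 1 of these 4 libraries or of the 2 Aβ-treated ones (highest adjusted p = 0.172). It was as low in wild-type libraries, at 7.85 and 10.4 in the Aβ control and 10.0 in the first AD control library. The labels give separate experiments, yet the collagen levels of the Ogt cKO and Aβ control groups lay close together: of 29 collagens tested, 29 had group means within 1 log2 unit of each other, with a median difference of 0.236, against 98.5% and 0.146 over all genes tested. In the AD model against the Aβ-treated group that held for 27 of 29, with a median of 0.446, against 96.2% and 0.202 over all genes tested. In the cKO control against Ogt cKO the same held for 18 of 29, with a median of 0.848, against 82.1% and 0.457 over all genes tested. The 2 AD control libraries stood apart from one another, with a correlation of log2 values of 0.948, and those of the AD model at 0.944, against 0.985 or more in the other 4 groups. Of the 10 fibrillar members tested, 8 were higher in the first AD control library than in the second. In bulk RNA, fewer cells of a type and less RNA per cell cannot be told apart.

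Collagen RNA was abundant in these cultures. FPKM (reads scaled by gene length and a library size) allows levels of different genes to be set side by side. The size implied by the values was not the total of reads in genes. That total was 1.10 and 1.07 times the implied size in Ogt cKO and 0.921 and 0.907 times in its control. FPKM of Ogt cKO thus stand higher against its control than shares of reads do. Col4a1 had a mean of 506 FPKM over the 12 libraries and ranked 56 among protein-coding genes by mean level. Col1a1, the main chain of type I collagen, followed at 491 (rank 59), Col4a2 at 369 (rank 88) and Col1a2, the second type I chain, at 213. The fibrillar Col5a2, Col3a1 and Col5a1 had means of 145, 121 and 113 FPKM, and Col18a1, which carries endostatin at its end, of 66.5. The highest of the other class were Col6a1 at 48.3, Col8a1 at 31.4 and Col16a1 at 23.5. Col1a1, Col4a1 and Col4a2 together made up 50.3% to 74.3% of the summed collagen FPKM in each library. The table divides by the length of all exons of a gene joined. For 10 of the 44 that length is over 1.5 times the longest coding transcript, so a level such as that of Col1a2 (12426 bases against 5348) is understated relative to Col1a1 (6563 against 5930). Comparisons of 1 gene between libraries do not depend on it.

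**Figure D1:**
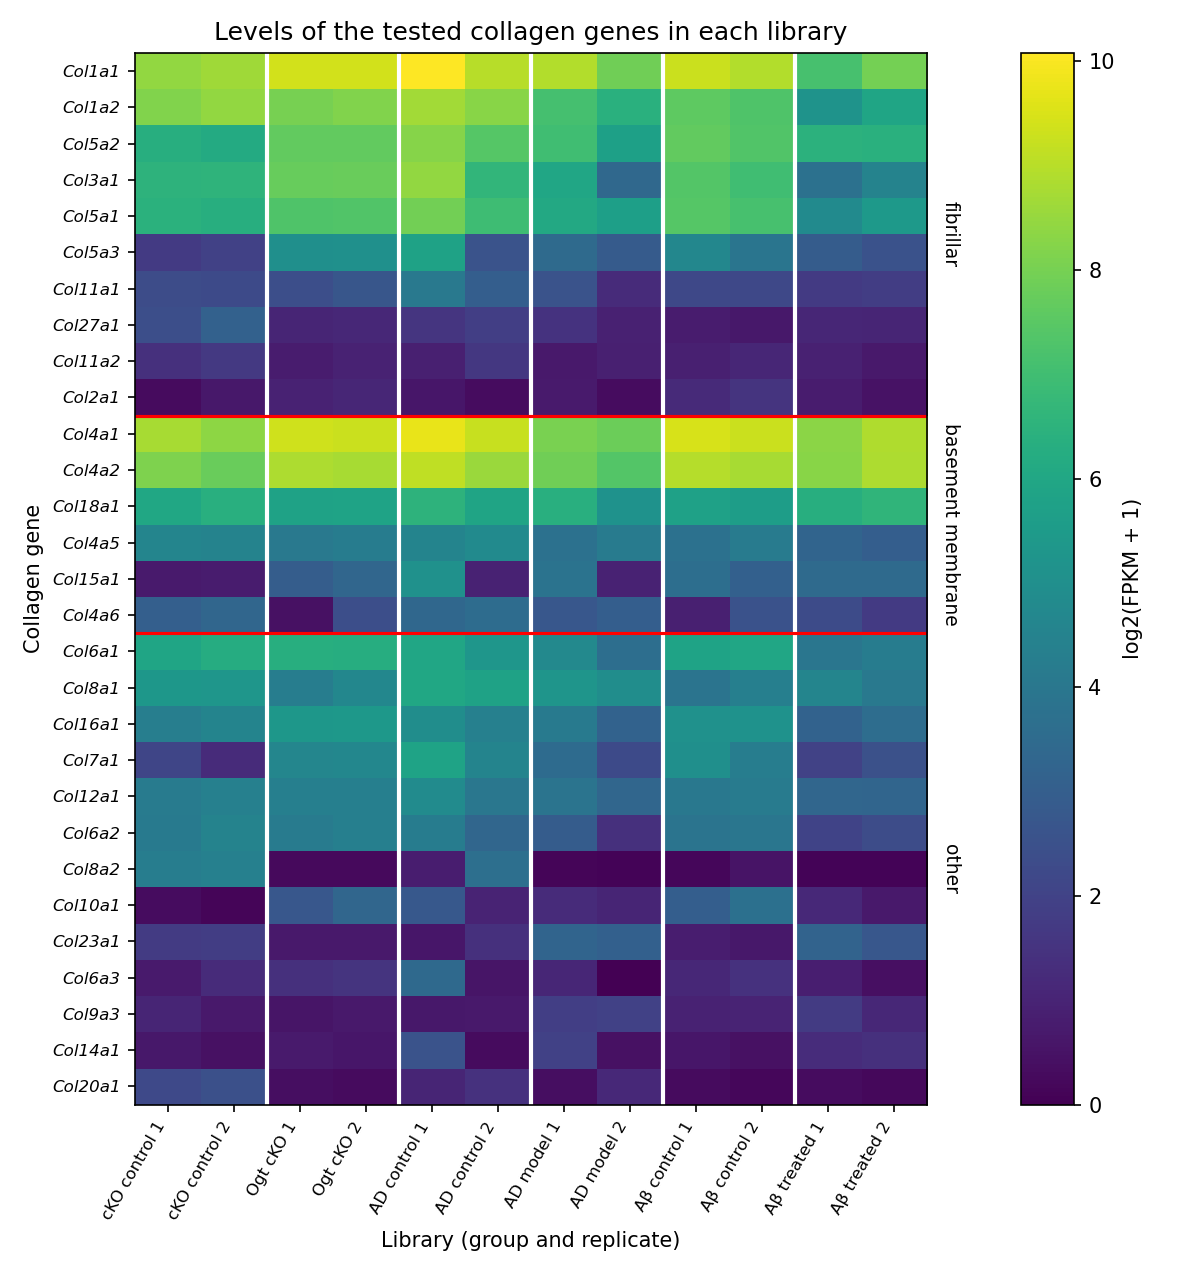
Levels of the 29 tested collagen genes as log2(FPKM + 1), by color, with 1 column per library and 1 row per gene; red lines part the fibrillar, basement membrane and other classes. The Ogt cKO and Aβ control columns look alike, Col8a2 is high only in the 2 cKO control libraries and the second AD control library, and Col23a1 is highest in the AD model and Aβ-treated columns.

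Summed over all 44 genes, collagen FPKM was 1890.1 and 1875 in the cKO control libraries, 2943 and 2940.2 in Ogt cKO, 4299.8 and 2486 in AD control libraries, 1642 and 963 in AD model libraries, 2819 and 2389 in the Aβ control, and 1124 and 1582 in the Aβ-treated libraries. The sums were thus higher in both cKO than in both of their controls, and lower in both AD and both Aβ-treated libraries than in theirs, with no overlap. No test was made of these sums. As a share of all reads in genes, collagens took 1.67% and 1.71% in the cKO control, 2.12% and 2.19% in Ogt cKO, 3.41% and 2.26% in AD control libraries, 1.38% and 0.795% in the model, 2.04% and 1.77% in the Aβ control, and 0.841% and 1.15% after Aβ. The order of the groups was the same by reads as by FPKM within each experiment, but Ogt cKO and its control lay relatively closer by reads.

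The balance of fibrillar to basement membrane collagen was lowest after Aβ. The ratio of the summed FPKM of the classes was 1.13 and 1.54 in the cKO control, 1.30 and 1.38 in Ogt cKO, 1.58 and 1.14 in AD control libraries, 1.45 and 0.986 in AD model libraries, and 1.07 and 0.962 in the Aβ control. In the Aβ-treated libraries it was 0.431 and 0.445, so the basement membrane class made up 65.1% and 66.0% of collagen FPKM there against 45.2% and 47.1% in the Aβ control. The summed fibrillar level was 1369 and 1081 FPKM in the Aβ control and 316 and 464 after Aβ, while the basement membrane sum went from 1274 and 1125 to 732 and 1044. In the AD model the sums of both classes lay below both AD control libraries, fibrillar at 894 and 439.9 against 2461 and 1229, basement membrane at 618 and 446 against 1557 and 1079. The other class gave 4.64% to 11.1% of collagen FPKM in each library. All these sums rest on joined exon lengths. That length is 2.32 times the longest coding transcript for Col1a2, 1.76 for Col3a1 and 1.11 for Col1a1. For Col4a1 it is 1.13 times and for Col4a2 1.03. Whether a ratio of the classes lies above or below 1 can therefore depend on the length used.

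**Figure D2:**
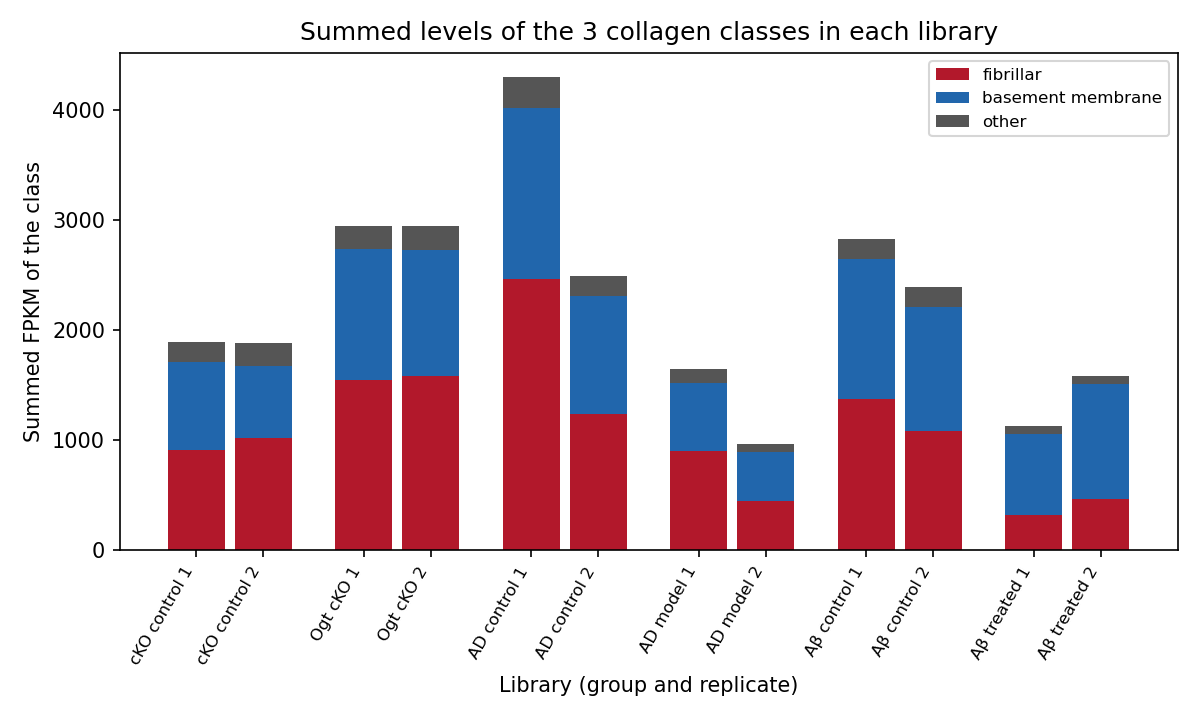
Summed FPKM of the fibrillar, basement membrane and other collagens, stacked, with 1 bar per library. Each AD model and Aβ-treated bar is lower than both bars of its control, and in the 2 Aβ-treated bars the fibrillar part (316 and 464 FPKM) is smaller than the basement membrane part (732 and 1044).

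Of the 44 genes, 29 reached 1 FPKM in at least 2 libraries and were tested: 10 fibrillar, 6 basement membrane and 13 others. The 15 left out are described at the end. Tests are limma's moderated test on log2(FPKM + 1), with Benjamini-Hochberg adjustment over 14014 genes and a threshold of 0.05; log2 changes on that scale understate the change of low genes, and all folds below are ratios of mean FPKM.

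In Ogt cKO against its control, members of all 3 classes moved, in both directions: 8 of 29 rose and 5 fell. That is 44.8% of those tested, near the 42.3% called over all genes tested (22.6% higher and 19.8% lower), with a median log2 change of 0.20 against -0.0024 over all genes. Among fibrillar genes 3 of 10 rose (Col5a1, Col5a2 and Col5a3, the 3 chains of type V) and 1 fell (Col27a1). In the basement membrane class 2 of 6 rose, Col4a1 and Col4a2. Among the others 3 of 13 rose (Col7a1, Col10a1 and Col16a1) and 4 fell (Col8a1, Col8a2, Col20a1 and Col23a1). The split depends on scaling, since 8 higher and 5 lower became 4 and 6 with quantile normalization and 4 and 8 when values were rescaled to total reads, which moved the median of all genes by -0.19. Col4a1, Col4a2, Col5a1 and Col16a1 were those no longer called as higher under both. Without any 1 of the 4 libraries of this experiment, 2 members were called higher, and without either Aβ control library 5. The calls of Col7a1, Col8a2, Col10a1, Col20a1 and Col27a1 were kept without each single library, and each of the other 8 was lost without the second control library and also without the first cKO library.

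Type V chains join type I fibrils and limit their width. Col5a3, a less common chain of that type, stood at 2.32 and 2.88 FPKM in the control and 31.6 and 32.5 in Ogt cKO. Both cKO libraries lay far above both controls, 12.3 times by the means (2.60 ± 0.397 against 32.1 ± 0.654 FPKM, SD, n = 2; log2 change 3.20 ± 0.81 SE, adjusted p = 0.0143). Its call was lost without any 1 of these 4 libraries (highest adjusted p = 0.068). Col5a2 went from 79.7 and 69.9 to 199.8 and 204 FPKM, 2.70 times higher (log2 change 1.42 ± 0.38, adjusted p = 0.0183). Col5a1 went from 85.3 and 79.0 to 158 and 162, with an adjusted p of 0.0395. All 3 chains were higher in both cKO libraries than in both controls. The rarest of the 3 rose most.

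The type I and III chains did not pass the test. Col1a1 was at 351 and 400.0 FPKM in the control and 677 and 669 in Ogt cKO, and Col3a1 at 91.6 and 93.5 against 211 and 217. The libraries of these 2 genes did not overlap, but neither passed (adjusted p = 0.144 and 0.234). The fit shares 1 spread over all groups, and the AD libraries varied most for both. Col1a2, the partner of Col1a1 in type I collagen, was at 284 and 352 in the control and 261 and 284 in Ogt cKO, so its groups did overlap. Col27a1, a fibrillar collagen of cartilage, fell from 4.43 and 7.83 FPKM to 1.05 and 1.18, by 5.504 times (log2 change -1.71 ± 0.25, adjusted p = 0.00223). That fall was also called in each of the 9 other settings.

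Both main type IV chains rose. Col4a1 was at 428 and 326 FPKM in the control against 652 and 617 in Ogt cKO (1.68 times, log2 change 0.76 ± 0.25, adjusted p = 0.0388). Col4a2 was at 278 and 217 against 463 and 438 (1.82 times, adjusted p = 0.0308). Both lost their calls under quantile normalization, rescaling to total reads and no filter on low values. Col4a5 and Col4a6, an X-linked pair whose chains occur in selected basement membranes, were lower in both cKO libraries than in both controls without passing. Col4a5 was at 22.9 and 21.6 against 15.7 and 17.8 FPKM (adjusted p = 0.141). Col4a6 was at 7.33 and 9.04 against 0.359 and 4.41 (adjusted p = 0.0540), so the 2 cKO libraries differed widely. The multiplexin Col15a1 stood at 0.677 and 0.718 against 6.84 and 9.17 (adjusted p = 0.135).

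The largest fall was in the other class. Col8a2, which with Col8a1 forms the network of Descemet's membrane and of vessel walls, was at 18.3 and 20.1 FPKM in the control and 0.198 and 0.181 in Ogt cKO, or 1551 and 1863 reads against 14 and 13. That is a fall by 102 times (log2 change -4.09 ± 0.70, adjusted p = 0.00368), the largest of the 29. Col8a1 itself was at 39.6 and 38.0 against 18.3 and 24.4 FPKM, a fall by 1.82 times (adjusted p = 0.0183). Col10a1, the network collagen of growth plate cartilage, went the other way, from 0.271 and 0.0929 to 5.59 and 9.14 FPKM (16 and 6 reads against 275 and 459; log2 change 2.79 ± 0.51, adjusted p = 0.00450). Col7a1, the anchoring fibril of the skin, was at 3.29 and 1.35 against 23.6 and 24.3, higher by 10.3 times (log2 change 2.97 ± 0.53, adjusted p = 0.00427). The calls of Col7a1, Col8a2 and Col10a1 were kept in each of the 9 other settings.

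Of the FACITs, Col16a1 rose from 18.9 and 22.2 to 38.9 and 40.8 FPKM (1.94 times, adjusted p = 0.0370), and Col20a1 fell from 3.62 and 4.45 to 0.284 and 0.230 (15.7 times, log2 change -2.00 ± 0.25, adjusted p = 0.00127). Col12a1, a large FACIT, overlapped, at 17.5 and 19.7 against 19.4 and 19.2 (adjusted p = 0.883). The transmembrane Col23a1 fell from 2.33 and 2.55 to 0.598 in both (adjusted p = 0.00986). The type VI chains Col6a1 and Col6a2, which form beaded filaments around cells, stood at ratios of 1.15 and 0.961 and did not pass. Beside these changes, smooth muscle markers summed to 485 to 1013 FPKM in the control and 4643 to 4777 in Ogt cKO (8 and 7 of 8 at 1 FPKM or more), endothelial markers to 43.3 to 53.5 and 275 to 287 (4 and 10 of 10) and mesothelial markers to 0.399 to 1.84 and 154 to 168 (0 and 2 of 5). Acta2 made up most of the smooth muscle sums, with means of 645 FPKM in the control and 3594 in Ogt cKO. Of the 8 smooth muscle markers 5 were called higher and 1, Synpo2, lower (mean 1.35 to 0.329 FPKM). Pericyte markers summed to 71.3 to 101 and 81.1 to 91.5 (Higd1b at 0 in the control, Atp13a5 in Ogt cKO), with 1 of 6 tested called higher (Cspg4, mean 5.42 to 20.9 FPKM) and 2 lower (Vtn, 12.1 to 1.30, and Anpep). Fibroblast markers summed to 237 to 239.8 and 233 to 235 (Slc6a13 at 0 in the control, Dpt in Ogt cKO), but single markers moved in opposite directions: of 7 tested, Mfap5 (0.255 to 17.2) and Cemip (42.1 to 73.5) were called higher and Fbln1 (161 to 31.1) lower. The part of these cell types in the collagen changes was not tested.

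In the AD model against its control the collagens that passed were mostly lower: 12 of 29 fell and 2 rose. That is 48.3% of those tested, against 17.1% over all genes (9.8% higher), and the median log2 change was -1.01 against -0.02. Falls made up 41.4% of the collagens and 7.27% of all genes. In the fibrillar class 5 of 10 fell (Col1a2, Col3a1, Col5a1, Col5a2 and Col11a1), in the basement membrane class 3 of 6 (Col4a1, Col4a2 and Col4a5) and in the other class 4 of 13 (Col6a1, Col6a2, Col7a1 and Col8a1). Those that rose, Col9a3 and Col23a1, belong to the other class. Fitted on the 4 AD libraries alone, 0 of 29 passed in either direction. Without the first AD control library 6 fell, and without the second AD model library 5. The calls lost without the one and also without the other were Col3a1, Col5a2, Col11a1, Col4a2, Col6a1, Col6a2, Col7a1 and Col8a1. Col4a5 was lost without the second control or the first AD model library. Libraries of the other experiments mattered too. Of the 12 fits without 1 library, Col3a1 and Col6a2 lost their calls in 10 each, Col4a5 in 8, Col8a1 in 7 and Col11a1 in 4.

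The fibrillar chains varied between the libraries of a group in this experiment. Col3a1 was at 346 and 98.6 FPKM in the control and 62.2 and 9.52 in the AD model. All control values lay above both AD values, by 6.20 times in the means (222 ± 175 against 35.9 ± 37.2, SD, n = 2; log2 change -2.85 ± 0.78 SE, adjusted p = 0.0364), but the call was lost when any 1 of 10 of the 12 libraries was left out. Col1a2 was at 411 and 308 against 137 and 83.6 FPKM, lower by 3.26 times (log2 change -1.72 ± 0.30, adjusted p = 0.00513). Col1a2 stayed called without each single library. Col1a1 stood at 1081 and 511 against 485 and 235, lower in both AD libraries than in both controls, but the second control was close to the first AD library and the test was not passed (adjusted p = 0.114).

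Type V and XI chains, which take part in starting fibrils and setting their width, were lower too. Col5a1 went from 246 and 123 FPKM to 66.8 and 50.9 (3.13 times lower, log2 change -1.56 ± 0.32, adjusted p = 0.0104) and was called without each single library. Col5a2 went from 303 and 171 to 125 and 51.4 (adjusted p = 0.0278), and Col11a1 from 16.0 and 7.01 to 4.93 and 1.35 (log2 change -1.64 ± 0.43, adjusted p = 0.0293). Col5a3, at 54.7 and 4.99 against 10.2 and 6.35, overlapped between the groups.

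Both main type IV chains were lower. Col4a1 was at 853 and 602 FPKM in the control against 267 and 221 in the AD model (2.98 times, log2 change -1.56 ± 0.25, adjusted p = 0.00360), a call kept without each single library. Col4a2 was at 547 and 378 against 238 and 165 (2.30 times, adjusted p = 0.0165). Col4a5 was at 22.5 and 27.6 against 12.4 and 17.2 (adjusted p = 0.0376), a smaller change of 1.69 times. Col15a1 divided by library rather than by group, at 33.4 and 0.970 in the control and 13.3 and 0.943 in the AD model. Col18a1 overlapped too, at 91.5 and 58.7 against 82.0 and 34.1.

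In the other class 2 of the 3 type VI chains tested fell, Col6a1 from 61.2 and 38.4 to 26.0 and 11.4 FPKM (2.66 times, adjusted p = 0.0201) and Col6a2 from 17.9 and 9.005 to 6.70 and 1.64 (3.22 times, adjusted p = 0.0402). Their partner Col6a3 was at 9.99 and 0.498 against 1.11 and 0.00918 and did not pass (adjusted p = 0.238). Col7a1 fell from 56.0 and 22.7 to 10.6 and 3.75 (5.48 times, log2 change -2.31 ± 0.53, adjusted p = 0.0177). Col8a1 fell from 63.3 and 54.4 to 37.5 and 29.3 (1.76 times, adjusted p = 0.0417), a call that 5 of the 9 other settings did not give. Col8a2 was at 0.755 and 11.996 in the control, or 56 and 1058 reads, and at 0.0882 and 0.0734 in the AD model, 7 and 6 reads; here the second control library was the high one, and the change did not pass (adjusted p = 0.0686). Col14a1, a FACIT, again went with the first library of each group, at 5.02 and 0.232 against 2.82 and 0.360.

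Of the other class 2 genes rose. Col23a1 was at 0.517 and 1.67 FPKM in the control and 8.62 and 7.57 in the AD model (49 and 188 reads against 874 and 790), 7.41 times higher (log2 change 2.17 ± 0.25, adjusted p = 0.000652). Col9a3, a chain of the FACIT type IX, was at 0.566 and 0.608 against 2.66 and 2.91 (4.74 times, log2 change 1.25 ± 0.21, adjusted p = 0.00409). Both were called without each single library. With the AD libraries alone their adjusted p were 0.0634 and 0.0655. Smooth muscle markers summed to 1744 to 4235 FPKM in AD control libraries and 194 to 778 in the model (8 and 7 of 8 at 1 FPKM or more), pericyte markers to 129 to 160 and 44.3 to 49.0 (6 and 5 of 10, Higd1b and Atp13a5 at 0 in the AD model), and fibroblast markers to 164 to 238 and 48.5 to 122 (6 and 4 of 10, Slc6a13 at 0 in the control and Dpt in the AD model). Of 6 pericyte markers tested, 4 were called lower and 1, Anpep, higher (mean 3.97 to 13.1 FPKM). Endothelial markers summed to 89.0 to 221 and 118 to 433, with the first library of each group the higher. The part of these cells in the falls was not tested.

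After Aβ 1-42 the collagens that passed were mostly lower: 13 of 29 fell and 1 rose. That is 48.3% against 35.9% over all genes tested (20.8% higher), and falls were 44.8% of collagens against 15.1% of all genes. The median log2 change was -0.72 against -0.04. In the fibrillar class 5 of 10 fell (Col1a1, Col1a2, Col2a1, Col3a1 and Col5a1), in the basement membrane class 2 of 6 (Col4a1 and Col4a5) and in the other class 6 of 13 (Col6a1, Col6a2, Col7a1, Col10a1, Col12a1 and Col16a1). Col23a1 was the 1 that rose. Without the first or second Aβ control library, or the first treated one, 6, 7 or 6 fell. The falls of Col1a2, Col5a1, Col6a1, Col10a1 and Col16a1 and the rise of Col23a1 were called without each single library. Those of Col1a1, Col3a1, Col4a1, Col6a2, Col7a1 and Col12a1 were lost without the first control or the first treated library, and that of Col4a5 without the second of either. Of the 12 fits without 1 library, Col12a1 lost its call in 8 and Col4a1 in 7, among them those without a cKO experiment library.

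Chains of types I, III and V were among the fibrillar falls. Col3a1 was at 165 and 125 FPKM in the control and 12.6 and 21.8 after Aβ, 8.45 times lower (145 ± 27.9 against 17.2 ± 6.49, SD, n = 2; log2 change -3.04 ± 0.78, adjusted p = 0.0155). Col1a2 was at 189 and 156 against 35.1 and 59.8 (3.64 times, log2 change -1.88 ± 0.30, adjusted p = 0.00182). Col1a1 was at 612 and 478 against 141 and 248 (2.80 times, adjusted p = 0.0242). None of these groups overlapped. Col5a1 fell from 172 and 139 to 27.5 and 42.8 (4.44 times, log2 change -2.14 ± 0.32, adjusted p = 0.00127). Col5a2, at 199 and 161 against 87.7 and 82.5, missed the threshold (adjusted p = 0.0568), as did Col5a3, at 24.1 and 14.3 against 6.60 and 4.83 (adjusted p = 0.157). Col2a1, the cartilage fibril collagen, fell at a low level, from 1.28 and 1.85 to 0.703 and 0.400 FPKM (adjusted p = 0.0276), a call lost without any 1 of these 4 libraries.

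Fewer basement membrane genes passed. Col4a1 was at 702 and 618 FPKM in the control against 316 and 467 (1.69 times lower, log2 change -0.78 ± 0.25, adjusted p = 0.0405), and 7 of the 12 fits without a library lost that call. Col4a2 overlapped, at 494 and 429 against 315 and 460.3 (adjusted p = 0.453). Col4a5 fell from 12.5 and 17.2 to 8.53 and 7.001 (1.92 times, adjusted p = 0.0109). Col18a1 was higher in both treated libraries, 78.4 and 96.9 against 53.7 and 47.5, without passing (adjusted p = 0.123). Col15a1 overlapped, at 11.4 and 7.63 against 10.2 and 10.1, and so did Col4a6, at 0.846 and 4.76 against 4.00 and 2.25.

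Col10a1 fell from 7.03 and 12.2 to 1.26 and 0.608 FPKM (10.3 times, log2 change -2.43 ± 0.51, adjusted p = 0.00615), and Col7a1 from 31.3 and 18.1 to 2.93 and 4.68 (6.49 times, log2 change -2.39 ± 0.53, adjusted p = 0.00820). Of the 3 type VI chains tested 2 fell, Col6a1 from 57.3 and 61.9 to 14.4 and 18.0 (3.68 times, adjusted p = 0.00365) and Col6a2 from 13.8 and 14.6 to 3.03 and 4.10 (3.99 times, adjusted p = 0.0162). Col6a3, at 1.17 and 1.74 against 0.799 and 0.328, did not pass (log2 change -0.66 ± 0.76, adjusted p = 0.519). Among FACITs, Col16a1 fell from 33.5 and 33.9 to 7.89 and 11.2 (3.53 times, adjusted p = 0.00270) and Col12a1 from 15.4 and 17.1 to 9.16 and 8.88 (1.80 times, adjusted p = 0.0470). Col23a1 rose from 0.763 and 0.582 to 8.20 and 5.70 (74 and 58 reads against 797 and 584), 10.3 times (log2 change 2.23 ± 0.25, adjusted p = 0.000321). Its rise was also called in each of the 9 other settings. Col8a1 overlapped, at 13.8 and 19.3 against 22.8 and 15.9, and its partner Col8a2 was low in all 4 libraries, at 5 to 35 reads.

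Markers moved in these libraries too. Smooth muscle markers summed to 4122 to 4584 FPKM in the Aβ control and 433 to 494 after Aβ (7 of 8 at 1 FPKM or more in both groups), pericyte markers to 98.4 to 121 and 36.7 to 42.8 (4 of 10 in both, Abcc9 at 0 in the control, Higd1b and Atp13a5 at 0 after Aβ), and mesothelial markers to 129.97 to 199 and 14.6 to 18.0. Of 6 pericyte markers tested, 2 were called lower and 1, Anpep, higher (mean 4.20 to 17.7 FPKM). Endothelial markers were higher after Aβ, at 276 to 343 and 773 to 1061 (10 of 10 in both), and fibroblast markers summed to 167 to 219 and 129.7 to 187. In the last list Dcn was called higher (mean 8.84 to 114 FPKM) and Cemip (67.8 to 7.51, adjusted p = 1.9e-05) and Mfap5 (15.1 to 1.41) lower; the other 4 tested were not called, 3 of them with log2 changes of -0.94 to -1.62 and Pdgfra with -0.27. The part of these cells in the collagen changes was not tested.

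**Figure D3:**
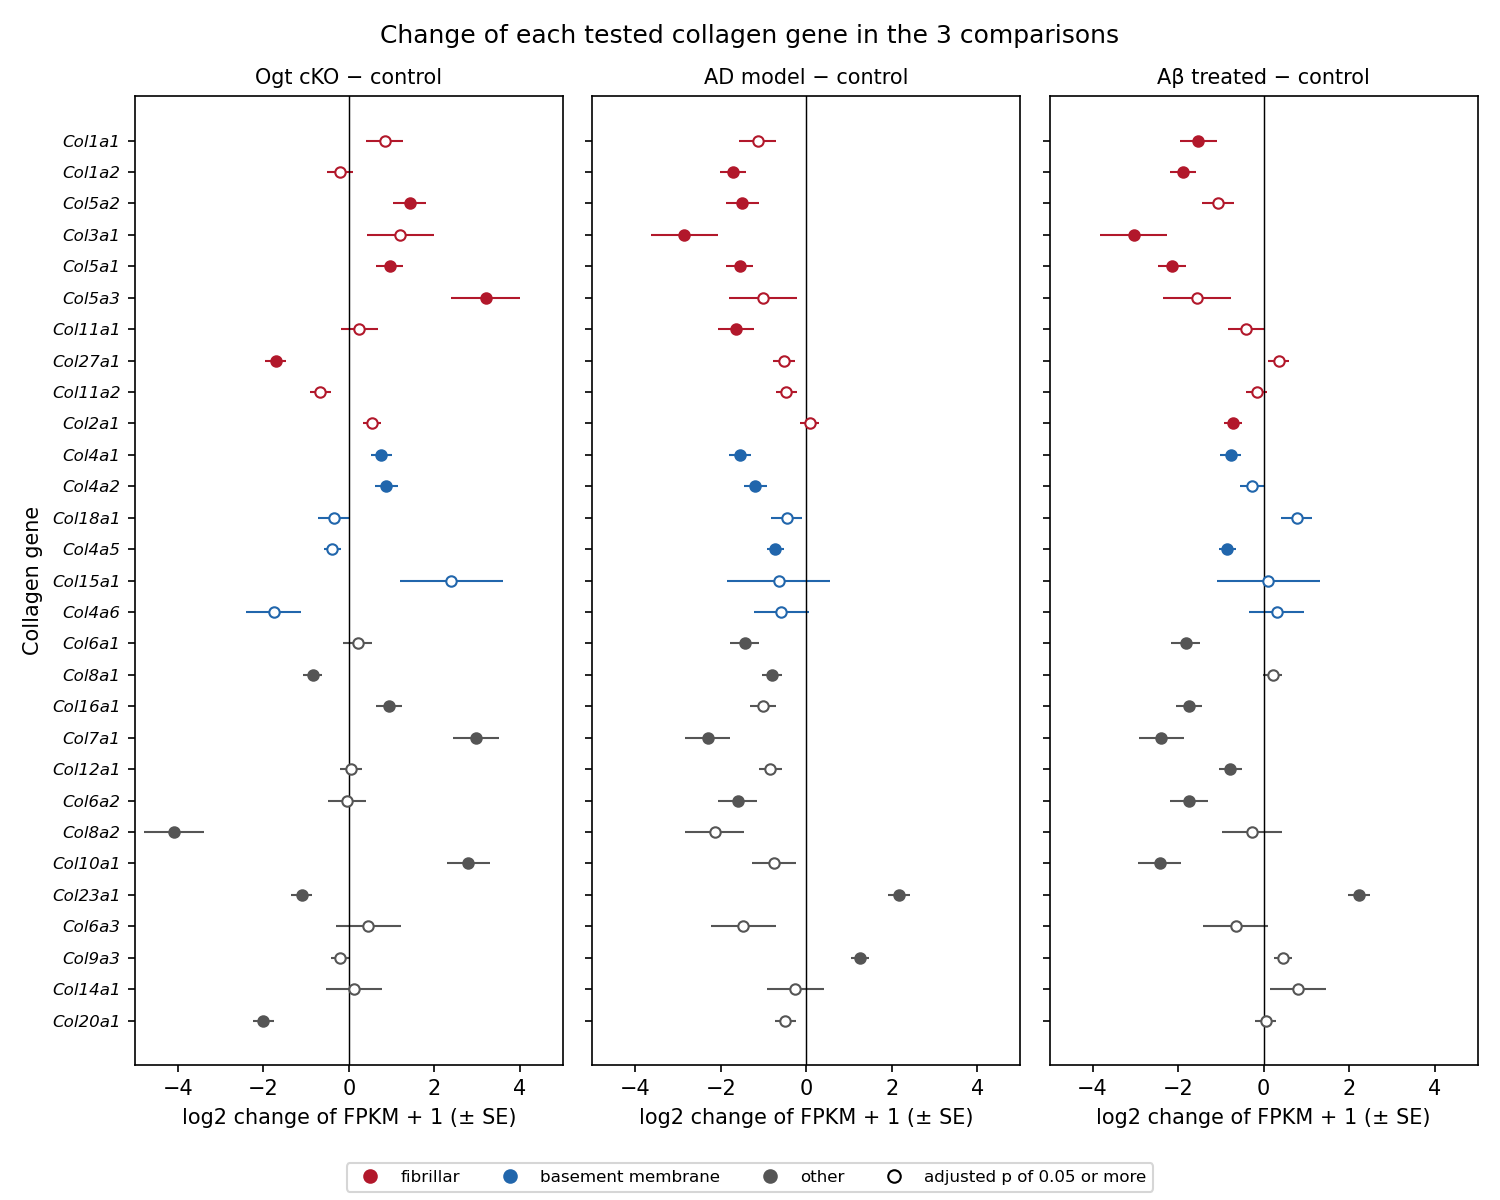
Log2 change of FPKM + 1 (points) with its standard error (bars) for the 29 tested collagens in the 3 comparisons; filled points passed an adjusted p of 0.05 and colors give the class. Most points in the AD and Aβ panels lie left of 0, Col23a1 lies right of 0 in both and left of 0 in the Ogt cKO panel, and Col7a1 and Col10a1 lie right of 0 in the Ogt cKO panel.

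The Ogt cKO change differed from each amyloid change for part of the collagens, and no collagen passed for AD against Aβ. The difference of the cKO and AD changes passed for 17 of 29 (58.6%, against 25.6% of all genes), 13 with the cKO change the more positive and 4 the more negative. That 17 became 8 to 11 without any 1 of the 4 cKO experiment libraries or the first AD control library, and 10 with no filter on low values or with the compared groups alone. Against Aβ it passed for 18, 13 and 5, a share of 62.1% that is near the 52.3% of all genes. The median difference over the 29 was 1.56 from AD and 1.14 from Aβ, against -0.00046 and -0.034 over all genes. Shares of all genes by direction were not taken for these differences. Of AD minus Aβ, 0 passed with limma (6.14% of all genes did), and 7 had an unadjusted p under 0.05. A voom fit of the recovered reads gave 0, the replicate number as a block 2, and the block with crossed Aβ numbers 4. Leaving out the first AD control library brought that 0 to 3, and the first AD model library to 2. A p that misses the threshold does not show that the 2 amyloid settings act alike: Col8a1, with the smallest p of them, had a difference of -1.02 ± 0.32 (adjusted p = 0.102), and Col4a2 one of -0.92 ± 0.38 (adjusted p = 0.191).

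Col7a1 had the largest differences. Its cKO change exceeded the AD change by 5.28 ± 0.75 log2 units (adjusted p = 0.00235) and the Aβ change by 5.37 ± 0.75 (adjusted p = 0.000774). For Col10a1 they were 3.55 ± 0.72 (adjusted p = 0.00966) and 5.23 ± 0.72 (adjusted p = 0.000712). These 4 differences passed without each single library. For Col5a3 they were 4.21 ± 1.14 (adjusted p = 0.0282) and 4.76 ± 1.14 (adjusted p = 0.00798), and for Col3a1 4.05 ± 1.10 (adjusted p = 0.0287) and 4.24 ± 1.10 (adjusted p = 0.0114), although neither the cKO change of Col3a1 nor the AD and Aβ changes of Col5a3 passed by themselves. In the fits without 1 library, the differences from AD of Col5a3 and Col3a1 were lost in 5 of 12 each. Col23a1 lay on the other side, at -3.28 ± 0.36 (adjusted p = 0.000654) and -3.34 ± 0.36 (adjusted p = 0.000257), as did Col20a1 and Col27a1. In the fibrillar class, 7 of 10 differences of cKO from AD and 7 of 10 from Aβ were called positive and 1 each negative. In the basement membrane class 2 of 6 each were called, Col4a1 and Col4a2, both positive. The shares called were 80% and 33.3% in these classes, against 25.6% of all genes for AD and 52.3% for Aβ.

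The 3 control groups differed for part of the collagens, at a share near that of all genes. The cKO, AD and Aβ controls differ in age (4, 6 and 2 months). The cKO control also differs in genotype, while the AD and Aβ controls are both wild type. Of 29 collagens, 16 differed among the 3 groups by limma's F test (55.2%, against 46.7% of all genes). Col8a2 was at 18.3 and 20.1, 0.755 and 11.996, and 0.145 and 0.449 FPKM in the 3 groups (adjusted p = 0.00699), Col7a1 at 3.29 and 1.35, 56.0 and 22.7, and 31.3 and 18.1 (adjusted p = 0.00298), and Col27a1 at 4.43 and 7.83, 1.92 and 2.70, and 0.713 and 0.579 (adjusted p = 0.00166). Col10a1 was at 0.271 and 0.0929, 5.84 and 1.01, and 7.03 and 12.2 (adjusted p = 0.00521). The F test shows that at least 1 control group differed, not that each differed from the others: Col7a1 overlapped between the AD and Aβ controls. Without 1 of the Aβ control libraries 6 or 9 differed, and without 1 of the cKO control libraries 7. Experiment and age cannot be told apart here, nor can genotype where the cKO control is compared.

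Chains that assemble into 1 molecule did not keep a fixed ratio of their RNA. Type I collagen is mostly made of Col1a1 and Col1a2 chains in a fixed proportion. The ratio of their FPKM was 1.24 and 1.14 in the cKO control and 2.60 and 2.35 in Ogt cKO. It was 2.63 and 1.66 in AD control libraries and 3.54 and 2.80 in the model, and 3.23 and 3.06 in the Aβ control and 4.02 and 4.15 after Aβ. The ratio was thus higher in each treated or mutant library than in both libraries of its control, although the mean of Col1a1 was higher in Ogt cKO and lower in AD and Aβ. With the lengths of the longest coding transcripts all these ratios are multiplied by 0.476, which leaves their order in place. For the type IV partners Col4a1 and Col4a2 the ratio was 1.54 and 1.51 against 1.41 in both libraries of Ogt cKO, 1.56 and 1.59 against 1.12 and 1.34 in the AD model, and 1.42 and 1.44 against 1.00 and 1.01 after Aβ. Here each mutant or treated library was lower than both of its controls, and no test was made of these ratios.

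**Figure D4:**
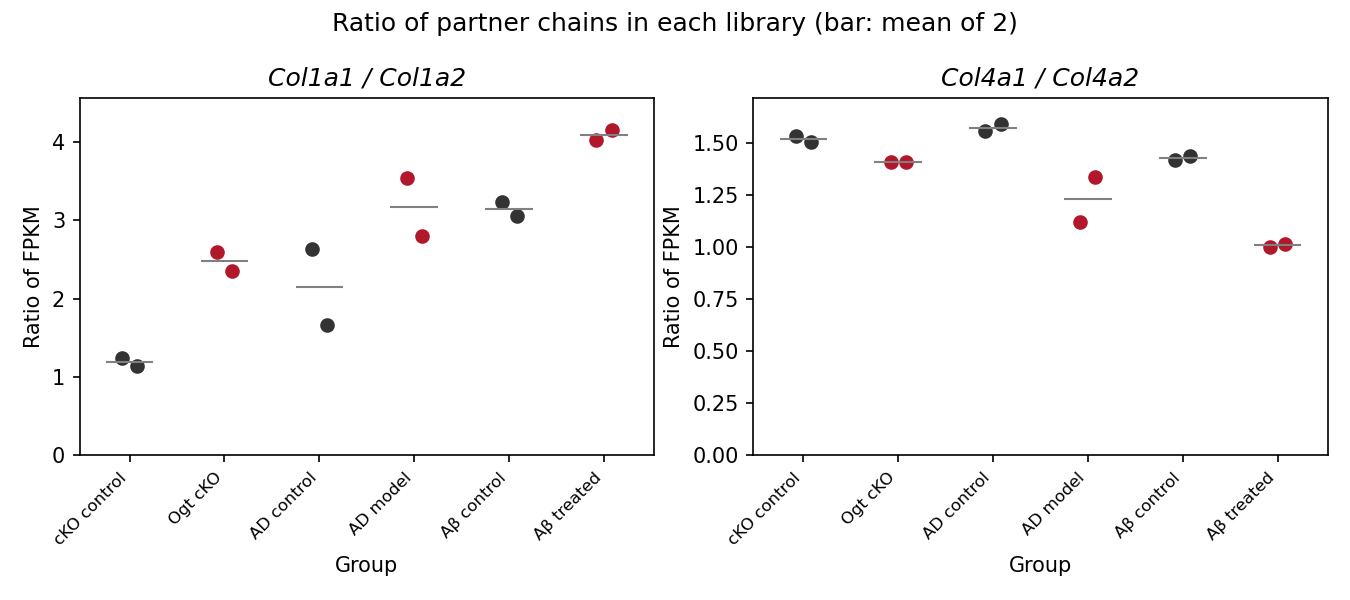
Ratio of FPKM of Col1a1 to Col1a2 (left) and of Col4a1 to Col4a2 (right) in each library, 2 points per group with a bar at their mean; black points are controls. Both red points lie above both black points of their experiment on the left (for example 2.60 and 2.35 against 1.24 and 1.14) and below them on the right.

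Other partners behaved less evenly. Col1a1 to Col3a1, which co-assemble in fibrils, was at 3.72 to 3.82 in the Aβ control and 11.2 to 11.4 after Aβ, at 3.13 to 5.18 in the AD control and 7.80 to 24.6 in the AD model, but at 3.84 to 4.28 in the cKO control and 3.08 to 3.21 in Ogt cKO. Col5a1 to Col5a2 was at 0.863 to 0.865 in the Aβ control and 0.313 to 0.518 after Aβ, and at 1.07 to 1.13 in the cKO control and 0.791 to 0.798 in Ogt cKO; in the AD groups the ranges overlapped. Col6a1 to Col6a2 stayed between 3.42 and 4.76 in 11 libraries and reached 6.94 in 1 AD model library, where Col6a2 had a level of 1.64 FPKM. Col8a1 to Col8a2 was at 1.89 to 2.16 in the cKO control and at 4.53 or more in every other library. These ratios have 2 libraries a group and no test.

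Neighbouring collagen genes did not always move alike. Of 8 neighbouring pairs of members on mm10, 4 had both genes tested. Col4a1 (chr8:11198423-11312826, minus strand) and Col4a2 (chr8:11312805-11449287, plus strand), which share the 22 bases printed above, changed by log2 0.76 and 0.87 in Ogt cKO, -1.56 and -1.19 in the AD model and -0.78 and -0.27 after Aβ. Col3a1 (chr1:45311538-45349706, plus) and Col5a2 (chr1:45374321-45503282, minus) face each other across 24614 bases, and changed by 1.20 and 1.42, -2.85 and -1.49, and -3.04 and -1.07. Col6a2 and Col6a1 follow each other on the minus strand of chromosome 10 with 85161 bases between them and changed by -0.05 and 0.20, -1.61 and -1.43, and -1.75 and -1.82. Col4a6 and Col4a5, head to head on chromosome X with 1308 bases between, changed by -1.75 and -0.39, -0.59 and -0.73, and 0.31 and -0.85. Whether the counting used strand is not given in the sources used here, so reads in the 22 shared bases of Col4a1 and Col4a2 cannot be assigned; the genes are otherwise apart.

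Of 32 genes for hydroxylation, folding and secretion, propeptide cleavage and cross-linking, 29 were tested. In Ogt cKO 13 rose and 2 fell, in the AD model 0 rose and 12 fell, and after Aβ 1 rose (Mia3, which loads collagen for secretion) and 17 fell. These are 51.7%, 41.4% and 62.1% of those tested, against 42.3%, 17.1% and 35.9% of all genes. Rises were 44.8% in Ogt cKO against 22.6% of all genes, and falls 41.4% and 58.6% in AD and Aβ against 7.27% and 15.1%. The median log2 changes were 0.62, -0.58 and -0.67. Of the 5 cross-linking oxidases of the lysyl oxidase family, 2 rose (Lox and Loxl4) and 1 fell (Loxl1) in Ogt cKO, 2 fell in the AD model and 4 after Aβ.

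The smallest p in Ogt cKO were those of Bmp1, the protease that removes the C-propeptide, P3h4, part of a collagen hydroxylase complex, and Lox. Bmp1 went from 40.3 and 36.4 to 98.9 and 93.9 FPKM (log2 change 1.31 ± 0.14, adjusted p = 0.000870), P3h4 from 48.9 and 48.5 to 118 and 112 (1.23 ± 0.16, adjusted p = 0.00139) and Lox from 65.7 and 38.2 to 286 and 367 (2.67 ± 0.41, adjusted p = 0.00265). In the AD model Loxl1, a cross-linking oxidase, went from 143 and 177 to 59.9 and 59.8 FPKM (-1.39 ± 0.16, adjusted p = 0.000542). P3h2, a prolyl 3-hydroxylase, changed by -1.38 ± 0.21 (adjusted p = 0.00281) and Loxl2 by -1.71 ± 0.30 (adjusted p = 0.00499). After Aβ, P3h4 went from 123 and 134 to 30.1 and 39.3 FPKM (-1.87 ± 0.16, adjusted p = 6.8e-05), Loxl1 changed by -1.50 ± 0.16 (adjusted p = 0.000211) and P3h3 by -1.18 ± 0.15 (adjusted p = 0.000635). Loxl1 fell in Ogt cKO as well (-0.69 ± 0.16, adjusted p = 0.00934), a call lost without the second control or the first cKO library.

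Of 10 receptors and uptake genes for collagen, 9 were tested, and 22.2%, 44.4% and 66.7% of these were called in cKO, AD and Aβ, against 42.3%, 17.1% and 35.9% of all genes. In Ogt cKO 1 rose (Itgb1, the common beta chain of the collagen-binding integrins, 1.55 ± 0.26, adjusted p = 0.00338) and 1 fell (Lair1, an inhibitory receptor of leukocytes, -1.45 ± 0.30, adjusted p = 0.00690). In the AD model 0 rose and 4 fell, led by the collagen receptor kinase Ddr2 (-1.03 ± 0.17, adjusted p = 0.00389), Itga1 (-1.15 ± 0.20, adjusted p = 0.00516) and Itga11 (-1.83 ± 0.37, adjusted p = 0.00973), chains of collagen-binding integrins. On the AD libraries alone none of these 3, nor Loxl1, P3h2 or Loxl2, was called (adjusted p 0.0551 to 0.166). After Aβ 0 rose and 6 fell, led by Mrc2, which takes up collagen for degradation, from 101 and 97.6 to 10.4 and 17.4 FPKM (-2.79 ± 0.31, adjusted p = 0.000299), the integrin chain Itga10 (-0.99 ± 0.14, adjusted p = 0.000849) and Ddr2 (-0.79 ± 0.17, adjusted p = 0.00734), whose call was lost without the first treated library. These lists were drawn up from textbook roles with results of these libraries known, so their counts are descriptions.

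The 15 collagens that were not tested missed the filter of 1 FPKM in 2 libraries, and the highest value of any of them was 0.901 FPKM (73 reads), of Col28a1 in the first AD control library. Some were detected well above 3 reads, such as Col22a1 with up to 58 reads and Col9a1 with up to 43, while Col19a1 and Col6a6 had at most 3 and 4 reads in any library. They are Col24a1 in the fibrillar class, Col4a3 and Col4a4 in the basement membrane class, and 12 of the other class, among them the type VI chains Col6a4, Col6a5 and Col6a6, the type IX chains Col9a1 and Col9a2, and the transmembrane Col13a1, Col17a1 and Col25a1. Col4a3 and Col4a4, the chains of the mature kidney and inner ear network, lie head to head on chromosome 1 with 71 bases between them. Col4a3 was at 0.349 and 0.286 FPKM after Aβ (59 and 51 reads) and at most 0.176 in the other 10 libraries, while Col4a4 lay between 0.0240 and 0.171 in the 12. Col13a1 was at 0 in both cKO control libraries, Col25a1 at 0 in both of Ogt cKO and Col6a6 at 0 in both of the Aβ control. Col19a1 was at 0 in the 4 AD model and Aβ-treated libraries and at most 0.0272 in the others. A value of 0 at this depth is not a sign that the gene is silent.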

How the data were processed

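RNA was measured in 12 libraries. The authors deposited 1 table of FPKM values for all genes with gene lengths, per the file headers; the submitters' processing notes name mm10, while the aligner, the counter and their strand setting are not given in sources used here. FPKM multiplied by length were whole multiples of 1 read in 100% of values (within 0.1 of a read), so depth could be recovered. Per library 3 reads are the floor used, and precision at low counts covers counting error only.

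Groups came from the sample labels. The 14014 genes that reached 1 FPKM in 2 or more libraries were fitted with limma 3.58.1 in R 4.3.3 on log2(FPKM + 1), with 1 mean for each of 6 groups, a shared spread (6 residual and 2.92 prior degrees of freedom), a mean trend and two-sided tests. P-values were adjusted by Benjamini-Hochberg over all of these genes, with a threshold of 0.05. Contrasts were each group minus its control, differences of those, and an F test over the controls. The scripts were tested on simulated data. Other settings are given in the closing section. The table's lengths equalled the joined exons of GENCODE M21 for 42 of 44 members. Promoters are from RefSeq.

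Genes named with values were, by rule, the highest in each class (6, 4 and 8), the 4 largest called rises and falls of each comparison and the 4 largest called differences of each pair, the partner chains of types I, III, IV, V, VI and VIII, and the 3 called genes of smallest p from each of the making and binding lists; further members named were chosen after their values were seen. The members, classes, markers and lists were chosen with earlier results of these data known. No label pairs libraries across groups by replicate number, and the main fit used no such pairing.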

Additional observations from a re-analysis of the deposited data

Results flagged for a closer look

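For 4 collagens the Ogt cKO change and an amyloid change differed by the test of the difference itself (limma, adjusted over all genes tested), and these are the members with the largest such differences. In log2 units of FPKM + 1, the cKO change minus the AD change was 5.28 for Col7a1, 4.21 for Col5a3, 4.05 for Col3a1 and 3.55 for Col10a1. The cKO change minus the Aβ change was 5.37 for Col7a1, 5.23 for Col10a1, 4.76 for Col5a3 and 4.24 for Col3a1. In each case the cKO libraries lay above their control and the amyloid libraries below theirs in the mean. Groups of 2 libraries are too small for a test of single outlying libraries.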

How the results depend on the processing

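Single libraries set much of the precision. Leaving out each library in turn gave 2 to 9 collagens higher and 3 to 6 lower in Ogt cKO, 2 to 2 higher and 5 to 17 lower in AD, 1 to 2 higher and 6 to 15 lower after Aβ, 0 to 3 differing between AD and Aβ, 8 to 22 between cKO and AD, 16 to 20 between cKO and Aβ, and 6 to 20 among the controls. With 1 library left in a group, it was assumed to vary like the others. For cKO lower the 3 came without the second cKO control or the first cKO library, and for cKO minus AD counts of 8 to 11 came without any cKO library or the first AD control library. With no filter on low values there were 4 higher in cKO, 4 lower in AD, 2 higher after Aβ, 10 for cKO minus AD and 7 among the controls. Quantile normalization gave 4 higher in cKO, and rescaling to total reads, added after seeing the data, 4 higher and 8 lower. Fitting the compared groups alone gave 0 higher and 0 lower in AD, 3 higher after Aβ, 10 for cKO minus AD and 9 among the controls. No label pairs same-numbered libraries across groups. Their deviations (replicate 2 minus replicate 1, over the genes tested) correlated at 0.0332 in cKO, 0.551 in AD and -0.169 in Aβ. Same-numbered AD libraries thus shared part of their deviations, which the main fit does not model. With the replicate number as a block, 3 were higher after Aβ, 2 differed between AD and Aβ, and 11 were higher in cKO, 16 lower in AD. With the Aβ numbers crossed in the block, added after seeing the data, the counts were 8 lower in cKO, 3 higher after Aβ and 4 for AD minus Aβ. Of 71 single-gene results, 41 kept their call without each single library, 30 also under each alternative, and 0 reversed. The cause of these changes was not tested.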
